A study of Saccharomyces cerevisiae with 3 samples.

Results

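The autophagy-related (ATG) genes of budding yeast were followed through the early part of the replicative lifespan on 3 dual-channel oligonucleotide arrays. The members were the features whose symbol in the array files was ATG followed by digits only, leaving out ATG42, and 25 of the 5792 gene features met this rule. A further 11 genes with an ATG symbol in the current gene annotation were on the arrays under another name or under none, and they are described separately. The rule used names and no measured value. Each array compared total RNA of older BY4742 cells (4th generation on one array, 7th on another and 11th on the last), labelled with Cy3, with RNA of 1st generation BY4742 cells labelled with Cy5. BY4742 is a haploid strain of the alpha mating type. The cells were tagged with biotin, grown in the rich medium YPD at 30 °C, and the older cells, which keep the tag on their wall while their buds do not inherit it, were collected on biotin-binding magnetic beads. The labels do not state how the 1st generation cells were prepared or whether 1 RNA preparation served all 3 arrays. There was 1 array per generation and no dye swap, so every value is that of a single array, no error or test can be given for it, and in the values against the 1st generation the dye and the generation cannot be told apart for any probe.

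Autophagy carries cytoplasm, organelles or chosen proteins into the vacuole, the lytic compartment of yeast, inside a double membrane that grows around them. The Atg1 kinase complex starts the process, vesicles carrying Atg9 and a phosphatidylinositol 3-kinase complex seed the membrane, and a pair of ubiquitin-like conjugation systems attaches Atg8 to the lipid phosphatidylethanolamine as the membrane expands. In growing cells much of the same machinery runs the Cvt (cytoplasm-to-vacuole targeting) pathway, which delivers a few vacuolar enzymes through the receptor Atg19. Transcript of several ATG genes, ATG8 among them, is known to increase on nitrogen starvation.

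A ratio below is log2 of the Cy3 over the Cy5 signal of one array after background correction and normalisation within print blocks, so that 0 means equal levels and a positive value is an excess of transcript in the older cells. The ratio was also computed in 5 other ways (loess over the whole array, median centring, plain subtraction of the blank signal, no background correction, and the values deposited by the authors), and counts out of 6 ways refer to these and the main one. A gene was called when the ratio reached 2-fold, a log2 value of 1 or more in either direction, among features whose raw signal exceeded the limit set by blank spots in one channel or both. In order of generation, 5659, 5567 and 5703 features met that condition. All 25 ATG members were above the blank spots in both channels of all 3 arrays, as were 91.8% of all features. Raw Cy5 signals of the members ran from 28.5 to 705 over the 3 arrays, and raw Cy3 signals from 74.5 to 2695. Among markers of the strain, the 4 alpha-specific genes had a median rank at the 92.5th to 94.2nd percentile of the 1st generation channel, against the 18.2nd to 20.7th for the 7 a-specific genes. Of the genes deleted in BY4742, LEU2 was not above the blank spots in either channel on any array. LYS2 passed the Cy5 limit alone, at 38.2, 30.6 and 32.8, and URA3 passed both limits on the arrays of the 4th and 11th generation, at 38.9 and 41.6 in Cy5. The dimmest ATG members lay near these signals of deleted genes. Raw Cy5 was 38.0, 28.5 and 34.9 for ATG9, 40.0, 30.8 and 36.3 for ATG16, and 46.4, 39.6 and 37.0 for ATG10. Whether the Cy5 signal of these members was transcript was not tested, and their ratios are uncertain for that reason. HIS3, of which the strain keeps a part, gave a raw Cy5 signal of 435, 430 and 356, and whether its probe lies in the part kept was not tested.

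At the 11th generation 4 of the 25 ATG genes were at least 2-fold higher than in the 1st generation and none was at least 2-fold lower. On that array 5.75% of all features were called higher and 3.84% lower. The 4 genes were ATG8, ATG5, ATG7 and ATG22, of which the first 3 belong to the conjugation systems. No ATG gene reached 2-fold in either direction at the 4th generation, where 2.17% of all features were called higher and 2.49% lower. None did so at the 7th, where 2.32% were called higher and 2.03% lower. The median log2 ratio of the 25 genes was 0.18, 0.10 and 0.20 at the 4th, 7th and 11th generation, beside 0.01, 0.01 and 0.03 over all features above the blank spots. Ratios above 0 were found for 16, 15 and 18 of the 25 genes, beside 51.7%, 51.1% and 52.4% of all features. The sign differed between the 6 ways of computing the ratio for 9, 9 and 10 of the 25. The spread among the members widened on the last array, from an SD across genes of 0.36 and 0.40 to 0.61, and that over all features went from 0.49 and 0.49 to 0.65.

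**Figure D1:**
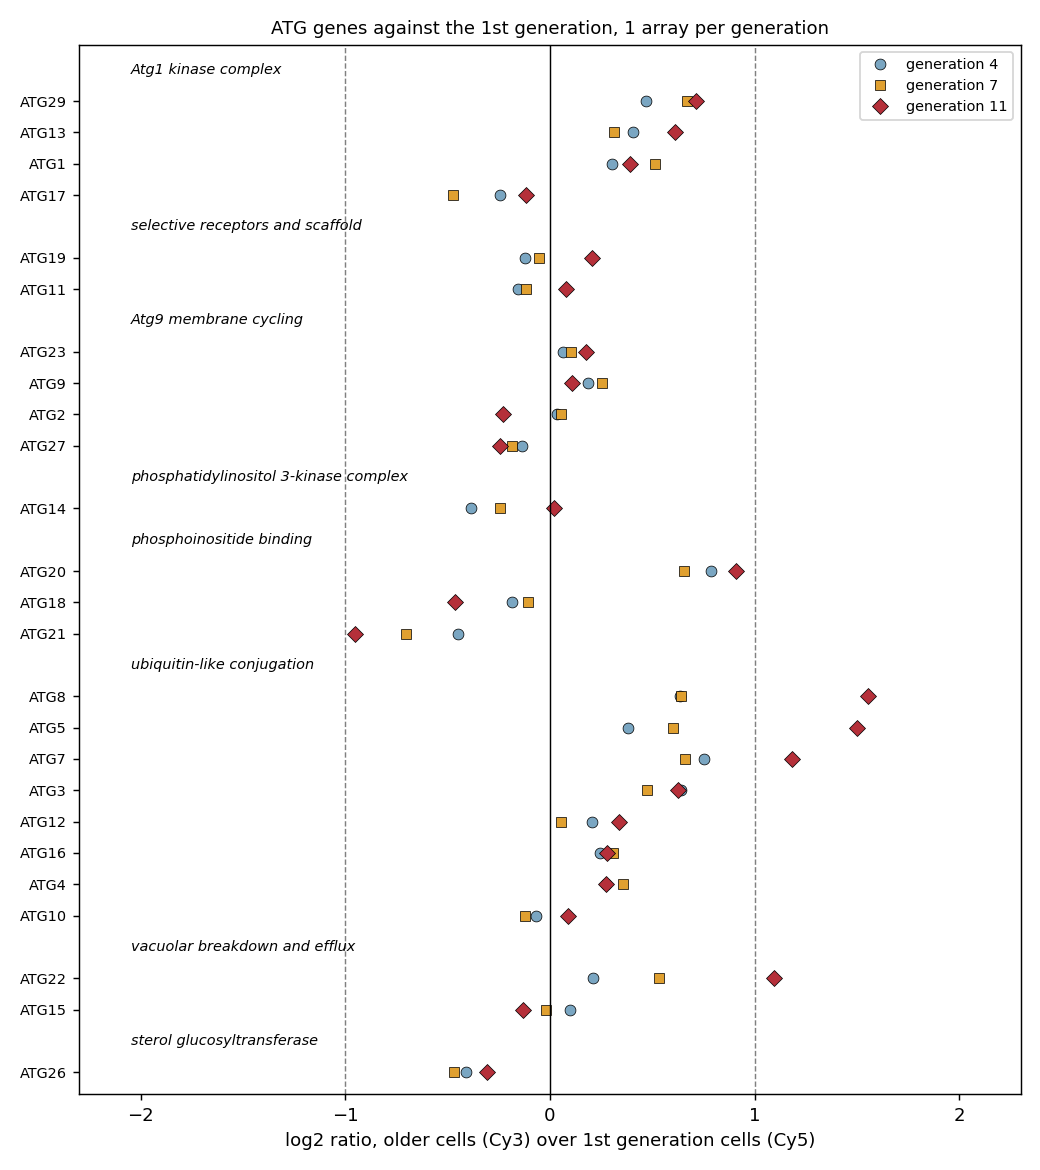
Log2 ratio of older over 1st generation cells (horizontal axis) for each of the 25 ATG genes, grouped by role, with 1 point per array for the 4th, 7th and 11th generation; the dashed lines mark 2-fold. The 11th generation points of ATG8, ATG5, ATG7 and ATG22 lie beyond the upper line, and no point of any of the 25 genes lies beyond the lower one.

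The ubiquitin-like conjugation systems held 8 members: ATG8 and ATG12, the ubiquitin-like proteins, ATG7, the activating enzyme shared by both, ATG3 and ATG10, the conjugating enzymes for Atg8 and Atg12, ATG4, the protease that trims and releases Atg8, and ATG5 and ATG16, which together with Atg12 form the complex that directs Atg8 to lipid. In the main values all 8 had a log2 ratio above 0 at the 11th generation, with a median of 0.48 and a range from 0.09 to 1.56. Under the 6 ways of computing the ratio 6 to 8 were above 0 there. The ratio of ATG10 ran from -0.71 to 0.14 and that of ATG16 from -0.47 to 0.68. At the 4th and 7th generation 7 of the 8 were above 0, ATG10 being the exception, and the medians were 0.33 and 0.42. Between the 4th and the 11th generation the median difference of the 8 was smaller, at 0.15, with 6 of 8 above 0.

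ATG8 (YBL078C) encodes the ubiquitin-like protein that coats the growing membrane. Its raw Cy5 signal, from 1st generation cells, was 451, 356 and 366 in order of generation, and its raw Cy3 signal, from the older cells, was 1602, 1411 and 2695. The 11th generation signal stood above the other 2 Cy3 signals, while the Cy5 signal of that array lay between the other 2. The log2 ratio was 0.63, 0.64 and 1.56, the last being 2.94-fold and at the 97.7th percentile of all features.

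ATG5 (YPL149W) encodes the protein to which Atg12 is joined. Its raw Cy5 signal was 122, 105 and 108, and its raw Cy3 signal was 368, 389 and 931. The raw older-cell signal of the 11th generation was more than 2-fold above those of the other arrays with little difference in the 1st generation channel. After normalisation the log2 Cy3 level was higher there by 1.10 than on the 4th generation array and by 0.96 than on the 7th. The log2 ratio was 0.38, 0.60 and 1.50, which is 2.83-fold at the 11th generation and the 97.4th percentile.

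ATG7 (YHR171W), for the activating enzyme, had raw Cy5 signals of 164, 140 and 142 and raw Cy3 signals of 638, 538 and 835. Its log2 ratio was 0.75, 0.66 and 1.19, or 2.27-fold at the 11th generation, so it was already well above 0 in the younger of the older cells. Its call depended on the normalisation, since the ratio at the 11th generation was 0.67 with loess over the whole array, 0.94 after median centring and 0.87 by the authors' deposited ratios. The other 5 members of the group, ATG3, ATG4, ATG10, ATG12 and ATG16, had 11th generation ratios between 0.09 and 0.63 and none was called on any array in the main values. ATG3, singled out here after its values were seen, had ratios of 0.64, 0.47 and 0.63, and under the same 3 alternatives that took ATG7 below 2-fold it was called at the 11th generation, at 1.04, 1.30 and 1.42. Under those alternatives ATG3 was also called at the 4th generation, at 1.06, 1.32 and 1.43.

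ATG22 (YCL038C), which encodes a vacuolar membrane protein that exports amino acids released by breakdown, was the called gene outside the conjugation systems. Its raw Cy5 signal was 107, 107 and 98.1, and its raw Cy3 signal was 469, 631 and 1044. The 1st generation signal was nearly level across arrays and the older-cell signal was higher on each later array. The log2 ratio was 0.21, 0.53 and 1.09, a 2.13-fold level at the 11th generation. ATG15, for the vacuolar lipase that breaks open the delivered vesicles and the other member of this group, had ratios of 0.10, -0.02 and -0.13 (it was set beside ATG22 by its role).

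**Figure D2:**
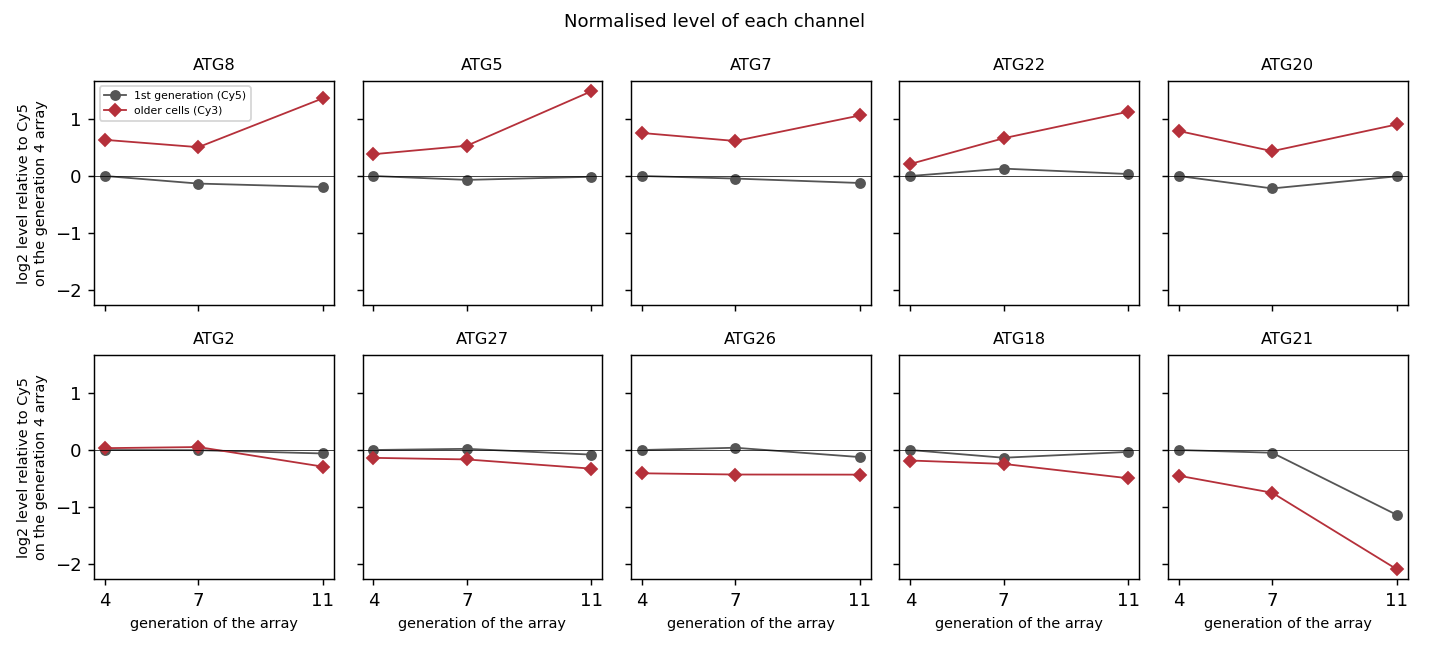
Normalised log2 level of the 1st generation channel (Cy5) and the older-cell channel (Cy3) by generation of the array, each drawn relative to that gene's own Cy5 level on the 4th generation array, for the 10 members with values on each array in the text. For ATG8, ATG5 and ATG22 the Cy3 level is highest at the 11th generation while the Cy5 level stays nearly flat, whereas for ATG21 both channels are lowest there.

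The Atg1 kinase complex was represented by ATG1, the kinase, ATG13, its regulatory subunit, and ATG17 and ATG29, parts of the scaffold that assembles on starvation. None of the 4 was called on any array in the main values. Their median ratio was 0.36, 0.41 and 0.50 at the 4th, 7th and 11th generation, with 3 of 4 above 0 each time. The exception was ATG17, singled out after its values were seen because its signal differed widely between arrays in both channels. Its raw Cy5 signal was 117, 50.8 and 103 and its raw Cy3 signal 342, 97.7 and 441, so both channels were low on the 7th generation array, and the ratio was -0.24, -0.48 and -0.12.

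Of the receptors and scaffolds of selective autophagy, the rule held ATG11, the scaffold that links bound cargo to the machinery, and ATG19, the Cvt receptor. Their ratios lay between -0.16 and -0.05 at the 4th and 7th generation and were 0.08 and 0.20 at the 11th. The phosphatidylinositol 3-kinase complex held ATG14 alone, the subunit that directs the kinase to autophagy, with ratios of -0.38, -0.24 and 0.02. For these 3 genes the 11th generation value was the highest of the 3, without a call in any comparison in the main values. In the authors' values ATG14 was called lower at the 4th generation, at -1.23, and higher from the 4th to the 11th, at 1.09. At the 4th and at the 7th generation ATG11 and ATG19 were each above 0 under 3 of the 6 ways.

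ATG9, the transmembrane protein whose vesicles seed the membrane, ATG23 and ATG27, which help move it, and ATG2, a lipid transfer protein, had a median ratio of 0.05, 0.08 and -0.06. ATG2 (YNL242W) gave raw Cy5 signals of 82.3, 72.6 and 72.3 and raw Cy3 signals of 272, 271 and 265, and its ratio was 0.03, 0.05 and -0.23. Its Cy3 signal was thus almost the same on the 3 arrays, and at the 11th generation its ratio was above 0 under 3 of 6 ways of computing it. ATG27 (YJL178C) gave raw Cy5 signals of 705, 650 and 593, raw Cy3 signals of 2075, 1890 and 1920 and ratios of -0.14, -0.19 and -0.25. Its ratio at the 11th generation was above 0 under 2 of the 6 ways, so no direction was settled for either gene.

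The lipid-binding members differed in direction. ATG20 (YDL113C), a sorting nexin that pairs with Snx4, had raw Cy5 signals of 289, 219 and 261, raw Cy3 signals of 1166, 851 and 1355 and ratios of 0.79, 0.65 and 0.91. It was above 0 on all 3 arrays and reached 1.88-fold at the 11th generation, short of a call. ATG18 (YFR021W) and ATG21 (YPL100W), which encode related proteins that bind phosphatidylinositol 3-phosphate, were below 0 on all 3 arrays.

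ATG18, the partner of Atg2 on the growing membrane, had raw Cy5 signals of 212, 175 and 195 and raw Cy3 signals of 412, 368 and 367. Its ratio was -0.18, -0.11 and -0.46, the last being 1.38-fold lower, and it stayed below 0 at the 11th generation under all 6 ways of computing it, from -0.97 to -0.46. ATG21, which places the Atg8-lipidating complex, had the lowest ratios of the 25 genes, at -0.45, -0.70 and -0.95, or 1.94-fold lower at the 11th generation. Its raw Cy5 signal was 235, 207 and 106, and its raw Cy3 signal was 669, 507 and 199.7. Both channels were thus lowest on the 11th generation array, and the normalised 1st generation level of ATG21 differed 2.20-fold between arrays, the widest range among the members. At the 4th generation its ratio was 0.26 with median centring, while at the 11th it stayed below 0 under all 6 ways, from -1.57 to -0.72, and was called lower under 2 of them.

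ATG26 (YLR189C) encodes a sterol glucosyltransferase that is needed for peroxisome breakdown in Pichia pastoris and is dispensable for autophagy in budding yeast. It gave raw Cy5 signals of 162, 156 and 135, raw Cy3 signals of 442, 408 and 501 and ratios of -0.41, -0.47 and -0.31. With median centring its 11th generation ratio was 0.28, so its direction was not settled.

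**Figure D3:**
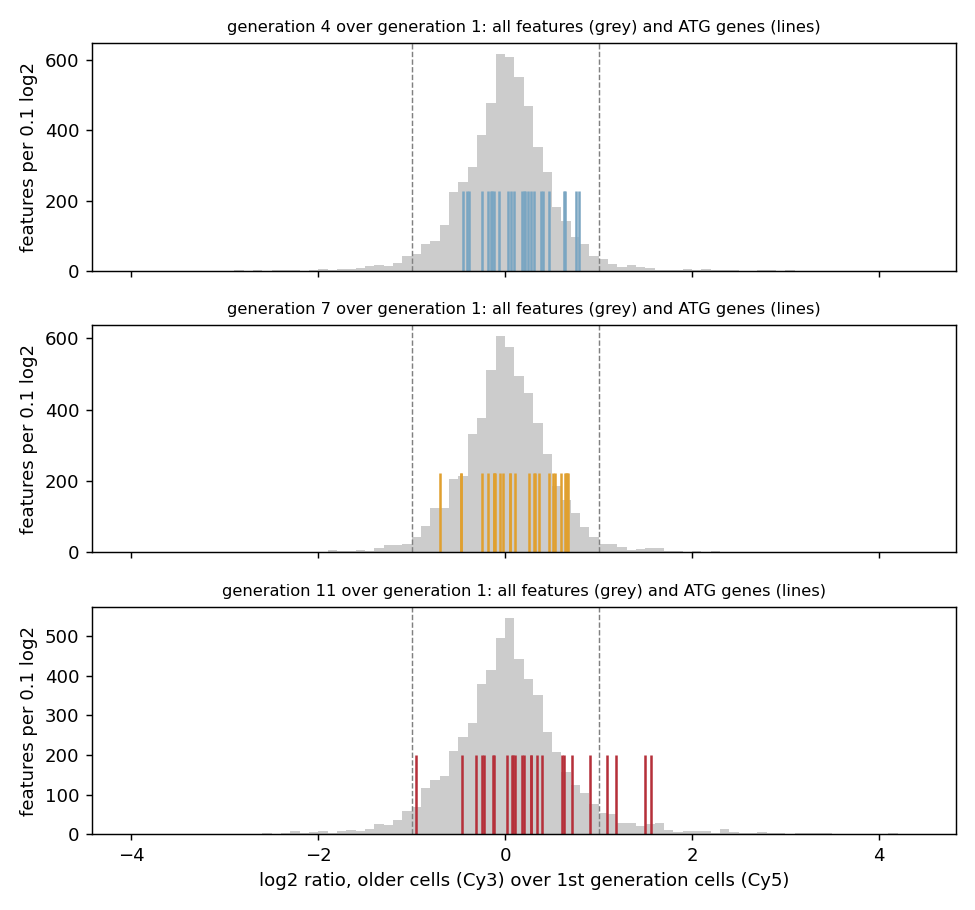
Distribution of the log2 ratio over all features above the blank spots on each array (grey), with the 25 ATG genes marked as vertical lines; dashed lines show 2-fold. No member lies beyond 2-fold at the 4th or 7th generation, and at the 11th ATG8, ATG5, ATG7 and ATG22 lie beyond the upper dashed line. Their ranks there were the 97.7th, 97.4th, 95.9th and 95.1st percentile. At the 4th generation ATG20 and ATG7 already stood at the 95.7th and 95.3rd percentile.

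Comparison of the generations with each other takes out a dye effect that is the same on both arrays. The 3 ratios rest on 1st generation RNA throughout, so the differences between generations were described by their own values. From the 4th to the 7th generation no ATG gene reached 2-fold, and 0.162% of all features did so upward and 0.0901% downward. The median difference of the members was 0.02, with 14 of 25 above 0 beside 51.0% of all features, and their SD across genes was 0.15.

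From the 4th to the 11th generation 1 of 25, ATG5, was called higher and none lower, beside 2.66% and 0.903% of all features. Its difference was 1.12, or 2.17-fold. ATG8 and ATG22 came next at 0.92 and 0.88, which is 1.90-fold and 1.84-fold, followed by ATG7 at 0.43 and ATG14 at 0.40. The lowest differences were -0.50 for ATG21, -0.28 for ATG18 and -0.26 for ATG2. The median of the 25 was 0.12 with 17 above 0, beside 0.01 and 51.5% for all features.

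From the 7th to the 11th generation no member was called, beside 1.93% of features higher and 0.558% lower. ATG8, ATG5, ATG22 and ATG7 had the 4 highest differences, at 0.92, 0.90, 0.56 and 0.53. The median was 0.16, with 16 of 25 above 0 beside 50.4% of all features. For ATG8 almost the whole difference between the 4th and the 11th generation therefore lay after the 7th, the 4th and 7th differing by 0.00. ATG22 also differed by 0.32 between the 4th and the 7th, the highest of the 25 differences from the 4th to the 7th generation.

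Along the 3 arrays the ratio of 15 of 25 members was highest at the 11th generation and that of 7 was lowest there, beside 44.8% and 43.3% of all features. A ratio that was higher at each later generation was found for 8, beside 28.5%, and these were ATG5, ATG8, ATG11, ATG14, ATG19, ATG22, ATG23 and ATG29. Both steps were above 0 under all 6 ways for ATG5, ATG14, ATG19 and ATG22. The step from the 4th to the 7th generation was above 0 under 3 ways for ATG11 and under 5 for ATG8, ATG23 and ATG29. For ATG29 the step from the 7th to the 11th was also above 0 under 5. On all 3 arrays 14 members lay above 0, beside 38.2%, and 5 lay below 0, beside 34.7%. The 5 were ATG17, ATG18, ATG21, ATG26 and ATG27, of which ATG18 was below 0 on all 3 arrays under all 6 ways of computing the ratio, ATG21 under 4, and ATG17, ATG26 and ATG27 under 3 each. ATG17 was above 0 under 3 of the 6 ways at the 4th and again at the 11th generation. Of the 14 above 0, ATG9, ATG13 and ATG16 were so on all 3 arrays under 5 of the 6 ways. ATG23 was so under 3 and below 0 on all 3 arrays under 2, and the rest of the 14 were above 0 under all 6.

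The 1st generation channel, hybridised on all 3 arrays, was the one repeated measurement. Its normalised level differed between the lowest and the highest array by a median of 1.09-fold over the 25 members and 1.11-fold over all features. For 2 members, ATG21 at 2.20-fold and ATG17 at 2.09-fold, it differed by at least 1.5-fold, beside 6.04% of all features, and by at least 2-fold, beside 2.81%. The corresponding median of the members in the older-cell channel was 1.24-fold, without a value over all features in that channel to set beside it. Whether it is particular to the members was therefore not tested.

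The position of a probe on the array moved with its ratio. Raw ratios ran higher in the even-numbered than in the odd-numbered print blocks, and after loess over the whole array the median of all features still differed by 0.45, 0.45 and 0.44 between them. Loess within blocks brought this to at most 0.011, and 13 members lay in even and 12 in odd blocks. After it the median 11th generation ratio was 0.08 for the members in even blocks and 0.50 for those in odd blocks, against 0.22 and 0.26 with loess over the whole array. ATG5, ATG8 and ATG22 were called at the 11th generation under all 6 ways of computing the ratio, with ranges of 1.14 to 1.88, 1.07 to 1.70 and 1.09 to 1.89. ATG7 and ATG3 were each called under 3 of them, ATG3 not in the main values. ATG29 was called higher under 2, and ATG4, ATG9, ATG12 and ATG20 under 1 each. From the 4th to the 11th generation ATG5 was called under all 6, from 1.08 to 1.36, ATG22 under 3 and ATG8 under none, with a range of 0.75 to 0.98.

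**Figure D4:**
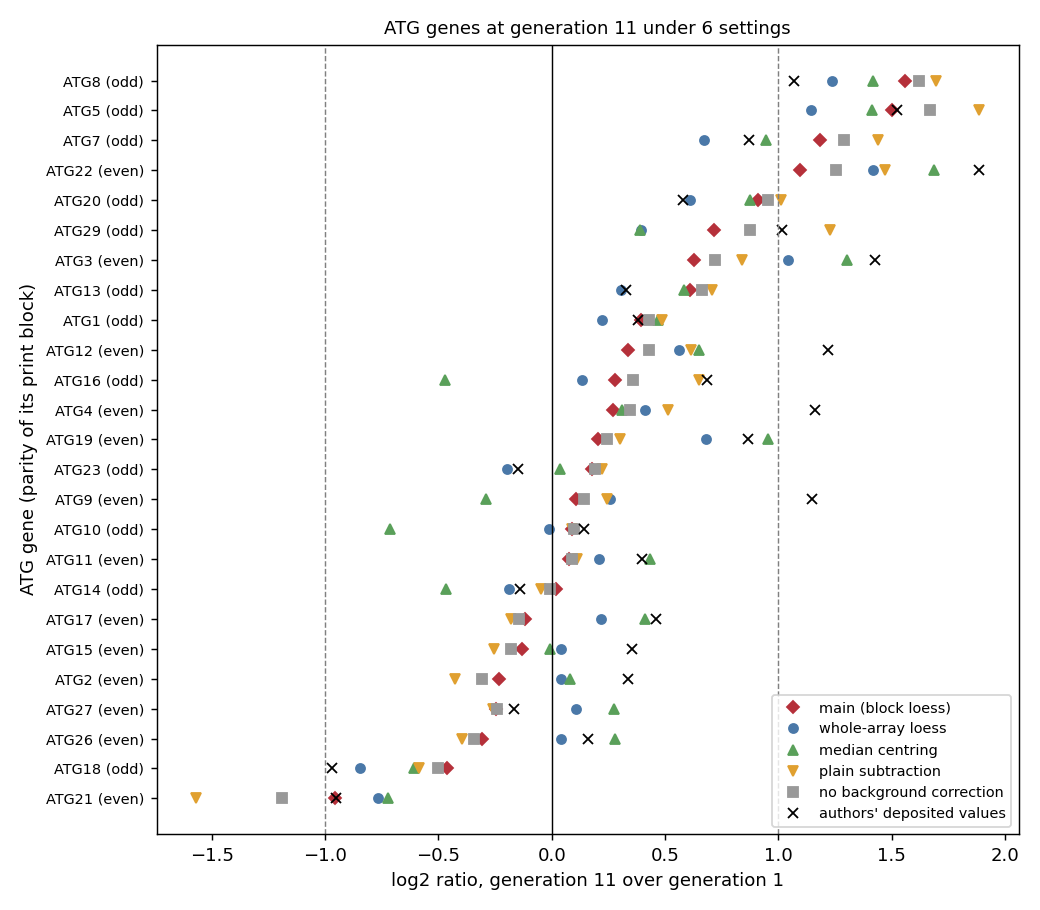
Log2 ratio of the 11th over the 1st generation for each of the 25 ATG genes under the 6 ways of computing it, with the main values marked; dashed lines show 2-fold. ATG5, ATG8 and ATG22 lie beyond the upper line under all 6, ATG7 and ATG3 under 3 each, ATG29 under 2 and ATG4, ATG9, ATG12 and ATG20 under 1 each, and ATG18 and ATG21 lie below 0 under all 6.

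The 11 ATG genes that the files carry under another name or none gave no call upward in the main values, and 1 of them, ATG41, was called lower on each array. At the 11th generation up to 5 of the 11 were called higher and up to 2 lower under the other ways of computing the ratio. ATG41 was called lower under 4 of the 6. In the main values 5.75% of all features were called higher there and 3.84% lower. Of the 11 genes, 8 lay in even print blocks. On that array the median of all features was higher in even blocks by 0.44 with loess over the whole array and by 0.83 in the authors' values. Their median ratio was 0.22, 0.12 and 0.20 at the 4th, 7th and 11th generation. From the 4th to the 11th generation their median difference was 0.41, with 10 of 11 above 0 under all 6 ways, and from the 7th to the 11th it was 0.34, with all 11 above 0. ATG41 (named ICY2 in the files), which takes part in the transport of Atg9, had ratios of -1.52, -1.57 and -1.29.

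Among them, 4 receptors of selective autophagy, named here after their values were seen, stood close together. ATG34, which binds alpha-mannosidase in starved cells and lies next to ATG19 on chromosome XV, had ratios of 0.27, 0.25 and 1.00, just short of 2-fold before rounding. ATG40, the receptor for endoplasmic reticulum, had ratios of 0.25, 0.29 and 0.99. ATG39, the receptor for the nuclear envelope, had ratios of 0.22, 0.25 and 0.83. The mitochondrial receptor ATG32 (ECM37 in the files) had ratios of 0.35, 0.33 and 0.76. In the main values each was nearly level between the 4th and 7th generation and higher at the 11th. Under the 6 ways their 11th generation ratios ran from 0.86 to 1.69 for ATG34, 0.68 to 1.69 for ATG40, 0.83 to 2.58 for ATG39 and 0.76 to 1.70 for ATG32, with 3, 3, 3 and 4 calls. With ATG11, ATG19, ATG33 and ATG36, the receptors and their scaffold numbered 8 on the arrays, 6 of them in even print blocks. In the main values the 8 ratios ran from -0.64 to 0.35 at the 4th generation, with 4 of 8 above 0. At the 11th they ran from -0.02 to 1.00, with 7 of 8 above 0 and a median of 0.48. The median difference of the 8 from the 4th to the 11th generation was 0.51. All 8 differences were above 0, also under all 6 ways, and none was called in the main values.

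Cvt cargo was higher in the oldest cells for some enzymes. AMS1, the alpha-mannosidase carried by Atg19, had raw Cy5 signals of 77.2, 68.2 and 68.1 and raw Cy3 signals of 397, 436 and 1249, with ratios of 0.89, 1.12 and 2.31. APE1 (LAP4 in the files), the main cargo, had raw Cy5 signals of 675, 543 and 577 and raw Cy3 signals of 1294, 1672 and 3987. Its ratio was -1.04, -0.39 and 0.71, below the 1st generation at the 4th and above it at the 11th under all 6 ways, with a difference of 1.76 from the 4th to the 11th generation. Its call at the 4th generation was found under 3 of the 6 ways and its 7th generation ratio was above 0 under 3. Of the 4 cargo genes measured, 1 was called higher at the 11th generation and 2 were called higher there than at the 4th.

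Of the 4 vacuolar hydrolases measured, which count ATG42 again, 2 were called higher on all 3 arrays, beside 2.17%, 2.32% and 5.75% of all features. The other 2, PRC1 and ATG42, were below 0 at the 4th and 7th generation, with lowest ratios of -0.64 and -0.78. At the 11th generation 1 of these 2 was below 0, at -0.47. Under the 6 ways up to 1 hydrolase was called lower on each array. PRB1, proteinase B, had ratios of 1.79, 2.06 and 2.49, and PEP4, proteinase A, which activates the others, had ratios of 1.46, 1.55 and 1.96. In the main values at the 11th generation no gene was called among the 7 partners that keep other names (VPS30, VPS34, VPS15, SNX4, VAC8, TRS85 and YPT1; median 0.17), 13 genes of vacuole fusion (median 0.11), 11 of nutrient signalling (median 0.06) or 12 transcription regulators of ATG genes (median 0.10). Under the other ways up to 1, 4, 2 and 1 of these genes were called higher and up to 1, 0, 1 and 0 lower. On that array 5.75% of all features were called higher and 3.84% lower in the main values, and more under several of the other ways. For the regulators the median difference from the 4th to the 11th generation was -0.15, with 2 of 12 above 0, beside 51.5% of all features. A link between these regulators and the ATG members was not tested.

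**Figure D5:**
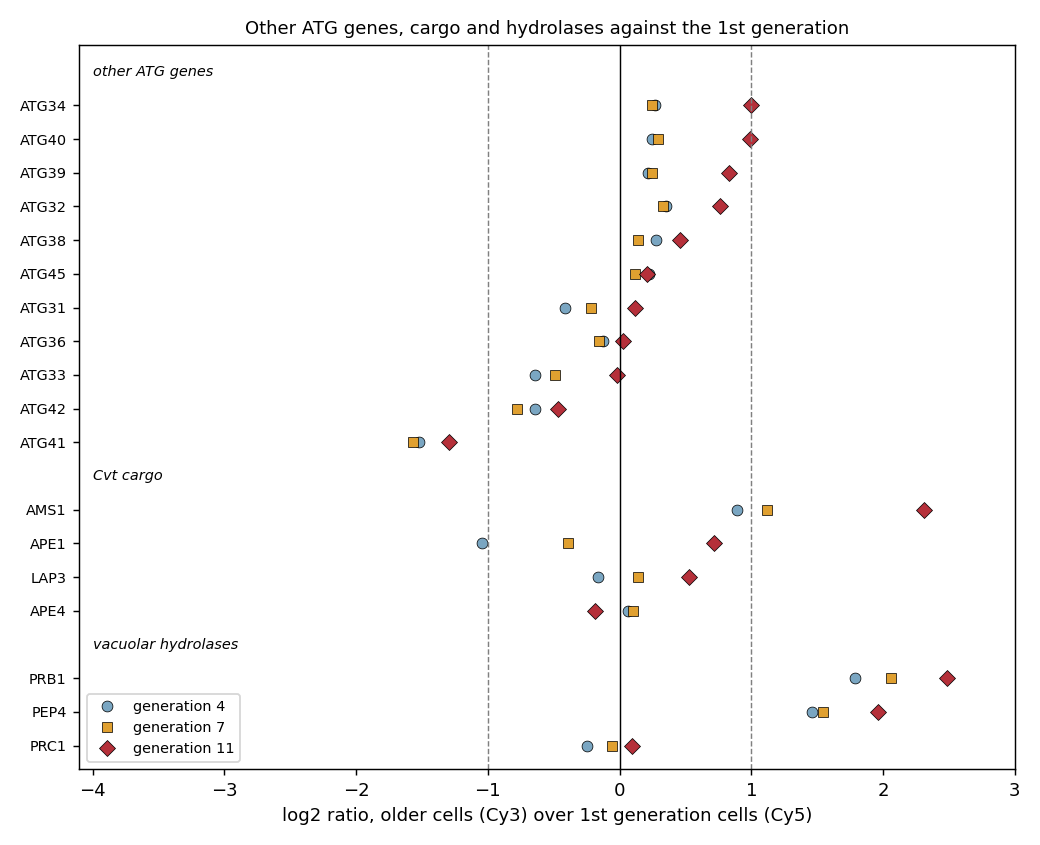
Log2 ratio of older over 1st generation cells on the 3 arrays for the 11 ATG genes carried under other names and for the Cvt cargo and vacuolar hydrolase genes; dashed lines show 2-fold. PRB1, PEP4 and AMS1 lie beyond the upper line at the 11th generation, ATG41 lies beyond the lower one on all 3 arrays, and APE1 lies below 0 at the 4th and above 0 at the 11th generation.

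Markers of daughter cells differed over the same arrays. The 10 daughter-specific genes measured were all below 0 on each array in the main values, with a median ratio of -0.61, -0.57 and -1.17, and 6 of them were called lower at the 11th generation. Of the 10, 7 lay in even print blocks, and under the other ways up to 3 were above 0 at the 4th generation and up to 2 at the 7th, with medians as high as -0.11 and -0.09. At the 11th generation all 10 were below 0 under all 6 ways, with 4 to 9 called lower. Their summed raw signal was 10754, 9135 and 5890 in Cy3 and 6600, 6052 and 5766 in Cy5. The 4 alpha-specific genes were likewise lower, with a median of -0.74, -1.24 and -2.10. None of the defining daughter markers was at 0 on any array, and the part of these differences in the ATG ratios was not tested. In RNA from a whole population, fewer cells of one kind and less RNA per cell cannot be told apart.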

How the data were processed

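Per the file headers, each array file gives a raw intensity per spot and channel, an intensity after subtraction of a background and a scaled intensity. The values show that the authors subtracted 1 constant per channel and array (22.2 to 27.2 in Cy5, 41.4 to 47.4 in Cy3) and multiplied Cy3 by 1 factor per array (0.270 to 0.340). The deposited series table holds the log2 ratio of these scaled signals. The extraction software is not given in the sources used here.

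From the raw intensities, normexp (offset 50) and loess within each of the 16 print blocks (span 0.3, non-gene spots at weight 0) were applied in limma 3.58.1 under R 4.3.3, after a check on simulated data. Per-channel levels came from Aquantile scaling. The blank limit was the mean plus 2 SD of 320 blank spots. No p-value was computed. Python 3.11.15, numpy 2.4.6, pandas 2.3.3 and matplotlib 3.10.9 did the rest. The number of arrays limits the precision, and the spread between arrays of one generation could not be measured. Within an array, 8 ACT1 spots had an SD of log2 ratio of 0.18, 0.18 and 0.62, the last with 1 spot at -1.54. Without the lowest spot of each array the SD was 0.15, 0.14 and 0.23, still widest at the 11th generation.

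Gene names came from the RefSeq table of assembly R64, which matched 5730 features and all 25 members. The members, role groups, gene lists and choice of block loess were made with earlier results of these data known. Values on each array were given for members called in any of 6 comparisons, the 5 highest and 5 lowest at the 11th generation and the 3 highest and 3 lowest from the 4th to the 11th, 10 members in all. Genes of other lists were named where called against the 1st generation in some generation, with exceptions stated. Sequences, promoter motifs and coordinates were not used here. The alternatives were loess over the whole array, median centring, plain subtraction of the blank signal, no background correction, the authors' deposited values, no filter on dim spots and a limit of 3 SD. Leaving out ATG17 and ATG21, and the Cy3 channel alone, were added after seeing the data.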

Additional observations from a re-analysis of the deposited data

How the results depend on the processing

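No paired analysis was possible because each generation had 1 array and the labels carry no replicate, and no array could be left out of a group for the same reason. The direction and calls of members were those of the main values under no filter on dim spots and under the limit of 3 SD. This outcome says nothing on robustness, because the filter selects features and changes no ratio. Every member passed it in the main setting, so its removal could not alter them, and a stricter limit could only drop members. Of the counts and medians of members, 126 under an alternative kept to within 1.5 times or 1 spread of the main value and 27 did not, and for the latter the cause was not tested. Members called higher at the 4th generation, 0 in the main values, numbered 1 with whole-array loess, 1 with median centring and 4 by the authors' ratios, with 1 called lower in the last. At the 7th generation 2 were higher with median centring, 2 with plain subtraction and 4 in the authors' values, 1 was lower with plain subtraction, and the median of 0.10 became 0.29 with median centring and 0.41 in the authors' values. At the 11th generation the 4 higher became 8 in the authors' values, 1 was lower with plain subtraction and 1 without background correction, and the median of 0.20 became 0.39 with median centring and 0.46 in the authors' values. Between the 4th and 7th generation 1 was lower with plain subtraction and 1 in the Cy3 channel alone. From the 4th to the 11th the 1 higher became 2 with plain subtraction, 2 without background correction and 3 in the authors' values, and 1 was lower with plain subtraction and 1 in the Cy3 channel alone. From the 7th to the 11th, 2 were higher with median centring, 2 with plain subtraction, 2 in the authors' values and 1 in the Cy3 channel alone, where 1 was also lower. In that channel alone ATG21 differed by -1.64 from the 4th to the 11th generation, against -0.50 as a ratio. Features called higher over the whole array, 123, 129 and 328 at the 4th, 7th and 11th generation in the main values, numbered 590, 591 and 849 in the authors' values, 389, 412 and 591 with median centring, and 341, 322 and 633 with plain subtraction, and 237 and 254 at the 4th and 7th with whole-array loess. Those called lower, 141, 113 and 219, numbered 527, 548 and 785, then 215, 232 and 470, then 351, 322 and 468 under the first 3 of these settings, and 198 at the 7th with whole-array loess. Between the 4th and 7th generation the 9 features higher and 5 lower became 35 and 47 with plain subtraction, 31 and 21 in the authors' values and 70 and 56 in Cy3 alone, with 22 higher under median centring. Between the 4th and 11th the 150 and 51 became 354 and 184 with plain subtraction and 316 and 137 in the authors' values, with 89 lower in Cy3 alone. From the 7th to the 11th the 107 and 31 became 259 and 106, 232 and 86, and 180 and 82 under the same 3 settings.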
